A study of Solanum lycopersicum with 96 samples.

Results

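Methyl jasmonate (MeJA) and BABA (beta-aminobutyric acid) were the elicitors given in time window 3 to mother plants of the tomato cultivar Moneyberg, and the DNA methylation of their seed is compared here directly. The comparison rests on 2 pooled lists of genomic regions, 30041 regions for MeJA TW3 and 31115 for BABA TW3, together 61156 of the 237372 regions in the 8 lists of the series. Both groups were Moneyberg seed, and they differed by label only in the elicitor. Each comprised 12 bisulfite libraries from 6 replicates, with 10 seeds pooled in each extraction, and each was deposited as 1 list. The other Moneyberg lists, used for reference, are an untreated control, BABA in time window 2 and Ina in time window 2, an elicitor that the labels do not spell out. A few values also come from the 3 lists of a second cultivar, Bolstar, which are an untreated control, BABA TW2 and Ina TW2. The series description names MeJA in time window 3 but not BABA in that window, which is known from the sample labels and its own list. The labels give no dose.

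Both compounds prime plants, which means that a treated plant mounts a faster or stronger defence when it is later attacked. MeJA is taken up into jasmonate signalling, in which the active hormone is bound by the COI1 receptor and JAZ repressors are degraded, and this branch acts mainly against chewing insects and necrotrophic fungi. BABA is a non-protein amino acid that in Arabidopsis is bound by an aspartyl-tRNA synthetase, and it primes defences that depend largely on salicylic acid and abscisic acid, with callose deposition at the cell wall. Cytosine methylation in plants is copied through cell division and can pass to seed, and in tomato most of it lies on transposable elements in the gene-poor interior of the chromosomes.

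Every region name begins with HYPO, and no methylation level is listed, so being listed is described here without a direction of methylation. The score in column 5 is a whole number for each region that the authors deposited without a stated definition. It followed region length (Pearson r across regions 0.901 in MeJA TW3 and 0.904 in BABA TW3, where regions are not independent replicates) and is read as a number of cytosine sites. Each elicitor has 1 list, so the spread between replicates cannot be given, MeJA and BABA were compared without a test, and the read depth behind each region is unknown. Intervals given below are 95% Wilson intervals over regions and cover counting error only.

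The MeJA TW3 and BABA TW3 lists covered nearly the same amount of sequence. MeJA TW3 listed 451.5 Mb in regions with a median length of 10.4 kb and a median score of 166. BABA TW3 listed 450.9 Mb in regions with a median of 10.2 kb and a score of 162. The bases in both lists amounted to 436 Mb, with 15.6 Mb under MeJA TW3 only and 14.9 Mb under BABA TW3 only. The Jaccard index, the bases in both lists divided by the bases in either, was 0.935. Among the 10 pairs of Moneyberg lists 3 had a lower index, and the pairs ran from 0.929 for MeJA TW3 with control to 0.939 for BABA TW3 with Ina TW2. The 2 elicitors of time window 3 were thus neither the closest nor the most distant Moneyberg lists.

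Of the MeJA TW3 regions, 876 had no base in the BABA TW3 list, or 2.92% (interval 2.73% to 3.11%). Of the BABA TW3 regions, 1301 had no base in the MeJA TW3 list, or 4.18% (3.96% to 4.41%). These are called MeJA-only and BABA-only regions below. Having the smaller count was not particular to the pair with BABA TW3. Of the 30041 MeJA TW3 regions, 864 had no base in control, 864 none in Ina TW2 and 769 none in BABA TW2. The other way these were 1910 of 32856, 1348 of 31258 and 1198 of 31130 regions. Between BABA TW3 and BABA TW2 the counts were 908 and 918. The larger BABA-only count came from the very bottom of the BABA TW3 list. The lowest score was 69 in BABA TW3 and 71 in MeJA TW3, and neither bottom was a sharp edge. MeJA TW3 held 23 regions with a score of 71, 208 with 73 and 272 with 74, where BABA TW3 already held 253, 290 and 307. From 75 to 90 the lists were alike, with a mean of 245 regions per score in MeJA TW3 and 255 in BABA TW3. BABA-only regions with scores of 69 to 73 numbered 594, or 45.7% of all BABA-only regions. MeJA-only regions with such scores numbered 18, or 2.05%.

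The minimum score of 71 therefore did not put the lists on an equal footing. Just below it, 68 of the 79 BABA TW3 regions with score 69 and 178 of the 208 with score 70 were BABA-only. Just inside it, 171 of the 253 with score 71 and 115 of the 278 with score 72 were, against 2 and 5 MeJA-only regions at these scores. With both lists at 71 or more there were 897 MeJA-only (2.99%) and 1055 BABA-only regions (3.42%). With a minimum of 75 in both lists, chosen after seeing these numbers, there were 1017 MeJA-only (3.46%) and 743 BABA-only regions (2.5%). A minimum of 85 in both gave 1020 (3.8%) and 669 (2.48%). At each of the 19 minima from 72 to 90 the MeJA-only regions were the more numerous, at 935 to 1035 against 630 to 886. A minimum on both lists also turns a region into a MeJA-only one when its BABA TW3 partner falls below the minimum. A score of 75 was also asked only of the counted regions, which were compared with the whole other list. This left 833 MeJA-only (2.83%) and 663 BABA-only regions (2.23%).

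**Figure D1:**
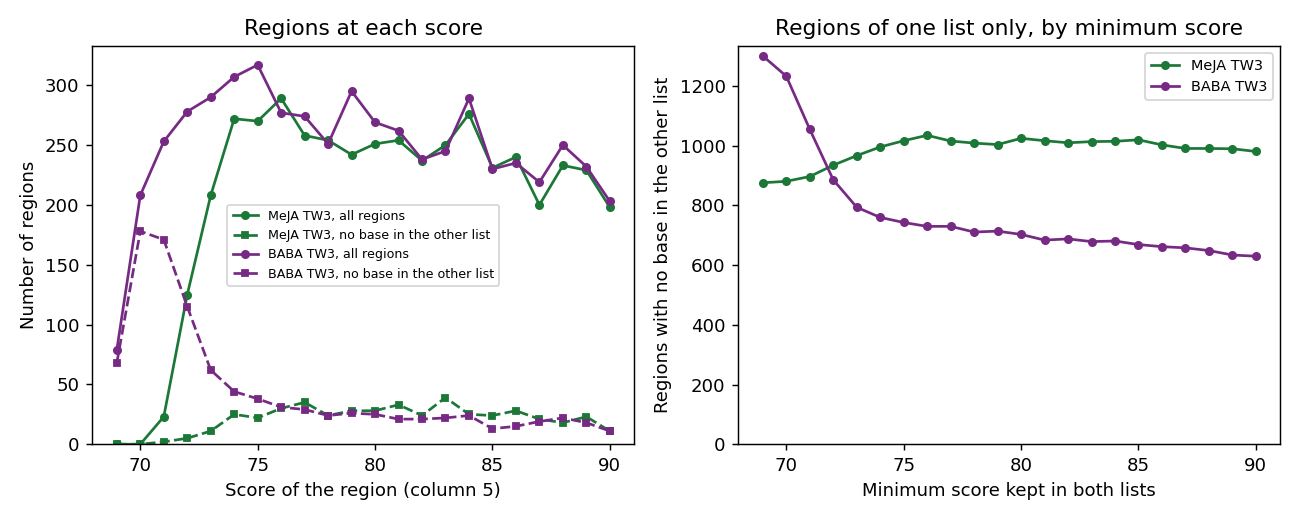
Left, number of regions (y axis) at each score (x axis) in the MeJA TW3 and BABA TW3 lists, with all regions as solid lines and regions without a base in the other list as dashed lines. Right, regions of one list only (y axis) against the minimum score kept in both lists (x axis), where the lines cross between a minimum of 71 (897 and 1055 regions) and 72.

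Regions with high scores rarely had no base in the other list, a share that is limited by their length. A single shared base is enough to count as touching. Gaps between neighbouring regions had medians of 2.7 kb in BABA TW3 and 2.82 kb in MeJA TW3, which left a long region little room. Outside chromosome 9 and as deposited, the share of MeJA TW3 regions that were MeJA-only was 7.05% at scores of 71 to 84, 4.34% at 85 to 99, 2.68% at 100 to 124, 0.727% from there to 149 and 0.0811% at 150 to 199. On those chromosomes the BABA-only share of BABA TW3 regions was 85.8% at scores of 69 and 70, which MeJA TW3 did not hold, 14.6% at 71 to 84, 3.7% at 85 to 99, 2.06% at 100 to 124, 0.570% from there to 149 and 0.105% at 150 to 199. None of the 12400 MeJA TW3 regions with a score of 200 or more outside chromosome 9 was MeJA-only, and none of the 12507 in BABA TW3 was BABA-only (Wilson upper limits 0.031% and 0.0307%). On chromosome 9 the shares at 150 to 199 were 6.43% MeJA-only and 3.93% BABA-only. At 200 or more they were 2 of 237 regions (0.844%) and 2 of 195 (1.03%). Over all chromosomes and as deposited, the median score was 89 for MeJA-only and 75 for BABA-only regions, against 172 and 169 for the regions that touched the other list. Median lengths were 6.53 kb and 5.54 kb, against 10.7 kb and 10.5 kb. At a minimum of 75 in both lists the elicitors were nearly level, with median scores of 91 and 89 and median lengths of 6.68 kb and 6.44 kb. As deposited, MeJA-only and BABA-only regions also held fewer sites for their length, with a median of 14.1 and 14.3 per kb against 16.1 and 16.1 per kb in the regions that touched the other list. This lower site density was similar on both sides and does not set the elicitors apart. It was not split by chromosome, and 50.2% of the MeJA-only and 29.7% of the BABA-only regions lay on chromosome 9. At a minimum of 75 in both lists these chromosome 9 shares were 46.8% and 45.8%.

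Regions of a single list lay both close to and far from regions of the other one. The gap to the nearest BABA TW3 region was under 1 kb for 245 of the 876 MeJA-only regions (28.0%) and over 10 kb for 241 (27.5%). For the 1301 BABA-only regions these numbers were 366 (28.1%) and 373 (28.7%). Off chromosome 9 these shares were 37.2% and 18.1% for MeJA-only and 32.1% and 24.0% for BABA-only regions. On chromosome 9 they were 18.9% and 36.8%, and 18.7% and 39.6%. Because gaps between neighbouring regions were short in both lists, closeness alone says little. The most isolated MeJA-only region was 193 kb from any BABA TW3 region, and the most isolated BABA-only region 171 kb from any MeJA TW3 region.

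Chromosome 9 held 32.0% of the bases listed under a single elicitor but 2.85% of the shared bases. There, 440 of the MeJA TW3 regions were MeJA-only, or 20.7%, against 436 (1.56%) on the other 11 chromosomes together. BABA-only regions numbered 386 on chromosome 9, or 18.4%, and 915 (3.15%) elsewhere. As deposited, MeJA-only regions outnumbered BABA-only regions on chromosome 9 and were fewer on each of the other 11 chromosomes. At a minimum of 75 in both lists they were more numerous on 11 chromosomes. Chromosome 3 was the exception, with 35 MeJA-only (1.46%) and 53 BABA-only regions (2.18%). On chromosome 9 the order was MeJA-only above BABA-only as deposited and at each minimum. The counts were 441 (20.7%) and 375 (18.0%) at 71, 476 (23.0%) and 340 (17.5%) at 75 and 461 (27.1%) and 286 (18.6%) at 85. Chromosome 3 showed BABA-only above MeJA-only under the same settings, with 98 (3.83%) and 27 (1.1%) as deposited and 75 (2.96%) and 29 (1.18%) at 71. At 85 it had 43 (1.94%) and 42 (1.92%), which were nearly equal. Chromosome 8 also had more BABA-only (42, or 1.78%) than MeJA-only regions (37, or 1.54%) at 85.

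**Figure D2:**
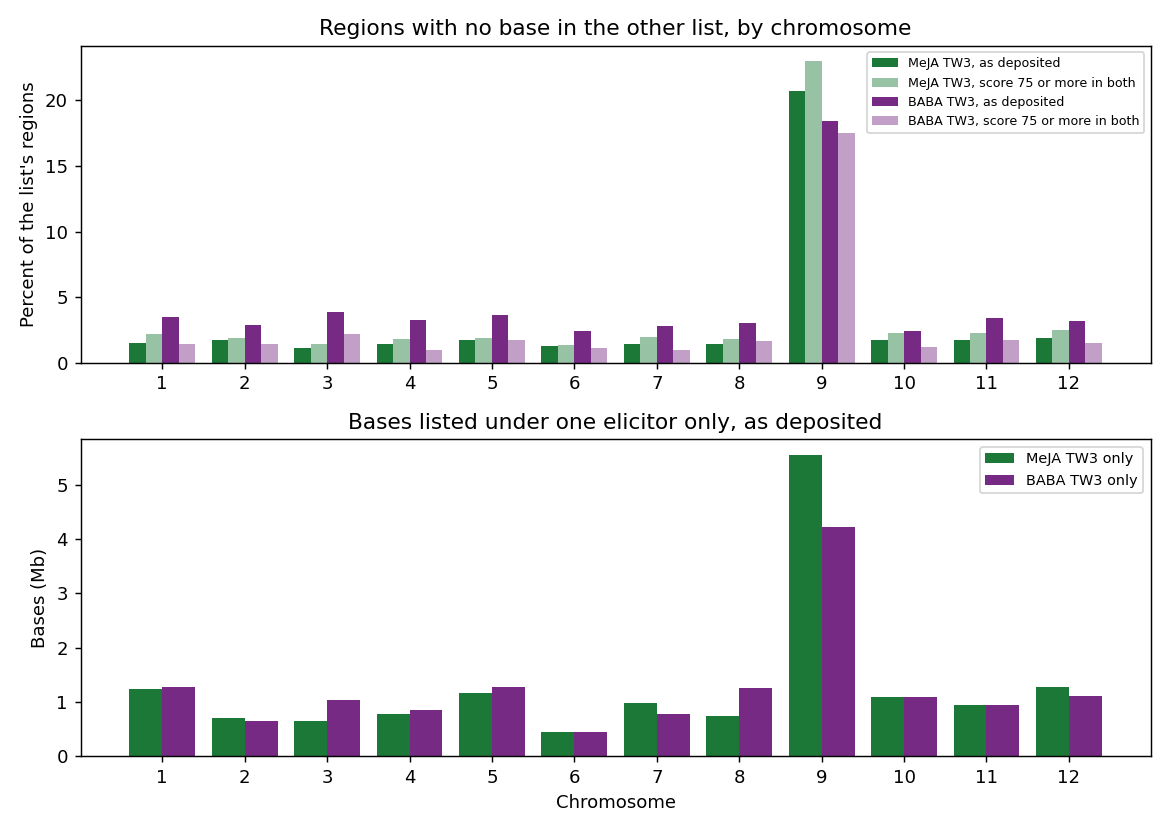
Top, share of each list's regions with no base in the other list (y axis, percent) on each of the 12 chromosomes (x axis), as deposited and with a minimum score of 75 in both lists (paler bars). Bottom, bases listed under one elicitor only (y axis, Mb) by chromosome; chromosome 9 stands above the others, with 5.56 Mb under MeJA TW3 and 4.22 Mb under BABA TW3.

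The disagreement on chromosome 9 came from 1 block with sharp edges. In bins of 1 Mb, all 55 bins from 6 to 61 Mb had a Jaccard index of 0.314 to 0.611, with 0.944 in the bin before the block and 0.823 in the bin after it. The other 18 bins of the chromosome lay between 0.721 and 0.976. Of the 735 bins on the other chromosomes, 1 had an index below the highest of the block, at 20 to 21 Mb on chromosome 11 (0.478), where MeJA TW3 listed 9.09% and BABA TW3 7.07%. The block held 417 of the MeJA-only and 342 of the BABA-only regions, out of 1637 MeJA TW3 and 1579 BABA TW3 regions there. The rest of chromosome 9 held 23 and 44. The totals of the whole chromosome, 2126 and 2096 regions, include the block and are no base for these counts. In the first 5 Mb, 9 of 132 regions (6.82%) were MeJA-only and 16 of 142 (11.3%) BABA-only. In the last 5 Mb these were 5 of 95 (5.26%) and 9 of 101 (8.91%). The block was not particular to these elicitors. Over the whole block the index was 0.472 for MeJA TW3 with BABA TW3, 0.464 to 0.495 for the 10 pairs of Moneyberg lists and 0.469 to 0.511 for the 3 pairs of Bolstar lists. The block was delimited after its values were seen.

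Within the block MeJA TW3 listed more sequence than BABA TW3. MeJA TW3 listed 24.8% of its bases, BABA TW3 22.2%, control 22.6%, Ina TW2 21.8% and BABA TW2 25.2%, so that the BABA lists of the different windows stood at the top and near the bottom of this order with MeJA TW3 next to BABA TW2. MeJA TW3 was the higher in 43 of the 55 bins and BABA TW3 in 12. Median region lengths in the block were 7.59 kb in MeJA TW3 and 6.97 kb in BABA TW3.

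Outside chromosome 9 the lists differed least in the chromosome interiors. On the 11 other chromosomes the Jaccard index was 0.957 between the first and last 5 Mb, 0.902 in the first 5 Mb and 0.86 in the last 5 Mb. Pooled over these chromosomes, the ends, which in tomato carry most genes, were also the least listed. They had 27.7% of the first and 12.6% of the last 5 Mb under MeJA TW3 and 27.9% and 13.2% under BABA TW3, against 65.9% and 66.0% between. The first 5 Mb of chromosome 2 did not share this, and raised the pooled values. Its bins there were listed over 60.9% to 89.3% under MeJA TW3, with an index of 0.937 to 0.98. MeJA-only regions made up 1.28% of the MeJA TW3 regions in the interiors, 4.38% in the first and 4.52% in the last 5 Mb. BABA-only regions made up 2.61%, 7.26% and 10.5%. At a minimum of 85 in both lists the shares in the last 5 Mb were 7.51% MeJA-only and 5.26% BABA-only, so that ends above interiors held for both elicitors and the order of the elicitors did not.

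The named MeJA-only regions, the 10 with the highest scores, had scores of 160 to 337, and 9 of them lay on chromosome 9. Positions follow the deposited lists, with the first base of a chromosome as 1, and the sources used here do not name their genome build. The region with the highest score lay at 40337285 to 40358671 on chromosome 9 (21.4 kb, score 337), with no base in BABA TW3. Of its bases, 93.8% were listed by BABA TW2, 78.7% by control and 67.0% by Ina TW2, so BABA TW3 was the single Moneyberg list without it. The next lay at 22645692 to 22664832 (19.1 kb, score 210). It was listed by Ina TW2 over 76.3% and by BABA TW2 over 42.9% of its bases, and was missing from control as well as from BABA TW3. The region at 48570079 to 48586813 (16.7 kb, score 171) was listed by Ina TW2 over 56.0% and by no other list of either cultivar. Off chromosome 9 the named region was at 59373451 to 59384369 on chromosome 4 (10.9 kb, score 164). Control and Ina TW2 each listed 76.3% of it and all 3 Bolstar lists listed the whole of it, while BABA TW2 of Moneyberg, like BABA TW3, had no base there.

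The named BABA-only regions had scores of 158 to 222, and 8 of the 10 lay on chromosome 9. The first was at 13132133 to 13150784 on chromosome 9 (18.7 kb, score 222), listed over 99.0% by BABA TW2, over 89.7% by Ina TW2 and not at all by control. The region at 59809305 to 59821656 (12.4 kb, score 160) had the same pattern, with 100% listed by BABA TW2, 98.8% by Ina TW2 and none by control. The second by score, at 14231403 to 14251154 (19.8 kb, score 215), was listed over 99.4% by BABA TW2, 79.9% by control and 38.6% by Ina TW2. The named regions on other chromosomes were at 34637284 to 34645090 on chromosome 2 (7.81 kb, score 175) and at 19931482 to 19943013 on chromosome 8 (11.5 kb, score 158). Ina TW2 listed the whole of the chromosome 2 region and control 55.4% of it, while BABA TW2 had no base there. On chromosome 8 Ina TW2 listed the whole region, control 98.8% and BABA TW2 51.5%, so MeJA TW3 was the Moneyberg list without it. All 10 named MeJA-only and all 10 named BABA-only regions were touched by at least 1 of the 3 other Moneyberg lists, 3 and 5 of them by all 3.

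As deposited, each of the 3 other Moneyberg lists held a larger share of the bases under BABA TW3 only than of those under MeJA TW3 only, an order that did not hold throughout at higher minimum scores. Of the bases under MeJA TW3 only, 41.5% were listed by control, 47.9% by BABA TW2 and 44.9% by Ina TW2. Of the bases under BABA TW3 only, 52.6% were listed by control, 50.3% by BABA TW2 and 54.5% by Ina TW2. With all lists at a score of 71 or more, the control, BABA TW2 and Ina TW2 shares were 38.7%, 47.8% and 44.6% of the MeJA TW3-only bases and 46.0%, 49.8% and 50.6% of the BABA TW3-only bases. BABA TW2, which shares the elicitor with BABA TW3, was thus the lowest of the 3 for the BABA TW3-only bases as deposited and not at 71. Of the bases in both lists, the 3 others listed 98.2% to 98.5%. At 75 or more, the shares of the MeJA TW3-only bases were 37.7%, 47.9% and 44.3%, and those of the BABA TW3-only bases 39.9%, 45.4% and 44.8%. At that minimum BABA TW2 held the larger share on the MeJA side, and control and Ina TW2 on the BABA side. On the 11 chromosomes other than 9 at 75, the control, BABA TW2 and Ina TW2 shares were 37.1%, 47.4% and 46.5% of the MeJA TW3-only and 39.0%, 43.7% and 46.2% of the BABA TW3-only bases.

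**Figure D3:**
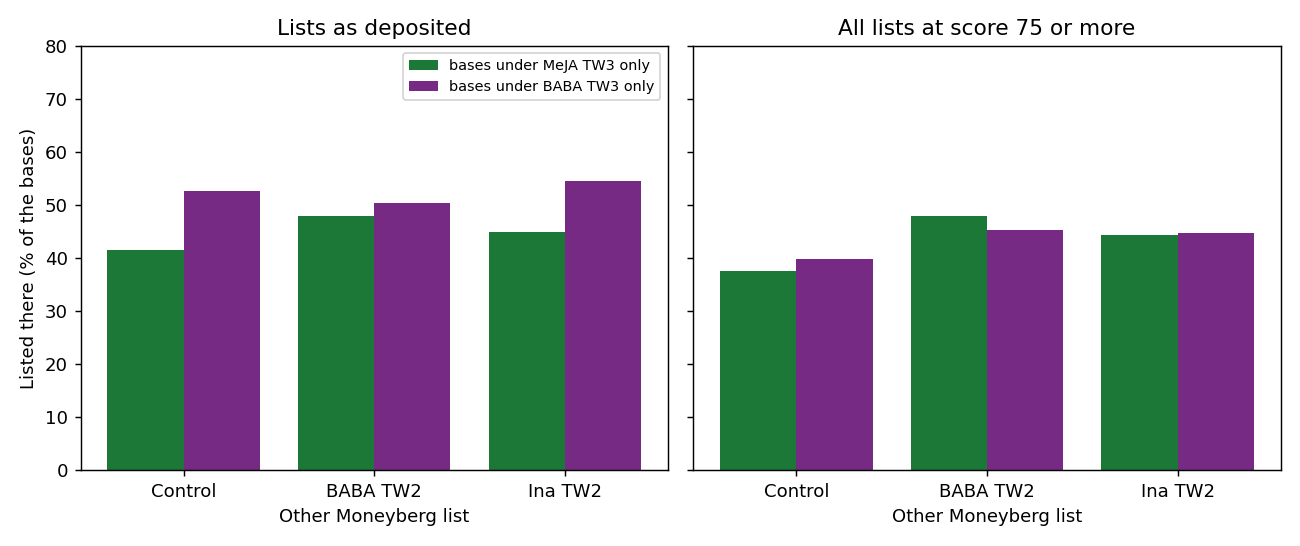
Share of the bases listed under MeJA TW3 only and under BABA TW3 only (y axis, percent) that each other Moneyberg list also held (x axis), as deposited on the left and with every list at a score of 75 or more on the right. The gap for control shrinks from 41.5% against 52.6% to 37.7% against 39.9%.

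Counted by regions, 546 of the 1301 BABA-only regions (42.0%) were touched by all 3 other Moneyberg lists, and 197 of the 876 MeJA-only regions (22.5%) were. Over all regions these shares were 94.8% for BABA TW3 and 95.1% for MeJA TW3. The 546 BABA-only regions had a median score of 72, at the bottom of the BABA TW3 list and where MeJA TW3 held few regions. Among counted regions with a score of 75 or more the shares were 187 of 663 (28.2%) and 189 of 833 (22.7%). Regions touched by none of the other 3 numbered 223 MeJA-only (25.5%) and 189 BABA-only (14.5%), and at a score of 75 or more 207 (24.8%) and 142 (21.4%). Over all regions of the lists the share touched by none of the other 3 was 0.995% for MeJA TW3 and 0.852% for BABA TW3. Regions touched by none of the other 6 lists of both cultivars numbered 91 MeJA-only (10.4%) and 85 BABA-only (6.53%), against 0.366% and 0.334% of all regions. At a score of 75 or more they numbered 85 (10.2%) and 56 (8.45%).

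Most regions had a single partner in the other list. Such pairs numbered 22783 and held 75.8% of the MeJA TW3 and 73.2% of the BABA TW3 regions. In 15963 pairs, 70.1% (interval 69.5% to 70.7%), both boundaries were at the same base in both lists. The other 29.9% had a moved boundary. Over the 10 pairs of Moneyberg lists the share with both boundaries in place was 69.2% to 71.2%. One boundary had moved in 5826 pairs and both in 994. Of the pairs with the same interval, 92.9% had the same score and 98.2% were within 1 of each other. Those with unequal scores were split evenly, 584 higher in MeJA TW3 and 542 in BABA TW3.

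When a boundary moved, the MeJA TW3 region more often reached further out. Of 7814 moved boundaries, MeJA TW3 was further out at 4450 (56.9%) and BABA TW3 at 3364. The split was the same at starts (2234 and 1678) and at ends (2216 and 1686), and in pairs off chromosome 9 (57.0% MeJA TW3) and on it (56.9%). By chromosome it was 52.7% to 61.1% except on chromosome 8, where it was 48.0%. It was 56.9% at a minimum of 71 in both lists, 56.7% at 75 and 56.2% at 85. A minimum removes whole regions and redraws no boundary. These shares therefore rest on largely the same boundaries (7806 at 71, 7645 at 75 and 7090 at 85) and could hardly differ. MeJA TW3 was further out against every other Moneyberg list, at 61.9% of moved boundaries against control, 56.2% against Ina TW2 and 55.2% against BABA TW2. The lowest scores of these lists were 65 for control, 68 for Ina TW2, 69 for both BABA lists and 71 for MeJA TW3. BABA TW3 was further out than control at 55.4% of their moved boundaries, than Ina TW2 at 49.4% and than BABA TW2 at 48.3%. Whether the bottom of a list has a part in its boundaries was not tested.

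The median distance of a moved boundary was 670 bases, with quartiles of 159 and 2261 bases. Distances under 100 bases made up 18.7% and distances over 2 kb 27.7%. The median was 663 bases where MeJA TW3 was further out and 679 bases where BABA TW3 was, over all chromosomes. On chromosome 9 these medians were 1623 and 1315 bases, and on the other chromosomes 541 and 582 bases, so the order of the elicitors differed between them. The added sequence was 6.6 Mb at boundaries with MeJA TW3 further out and 4.98 Mb at those with BABA TW3 further out. On chromosome 9, 49.6% of the boundaries in pairs had moved, with a median of 1471 bases, and 32.4% of its pairs kept both boundaries. On the other chromosomes 13.1% to 16.8% of the boundaries had moved and 69.4% to 76.1% of the pairs kept both, with chromosome 3 the most stable.

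**Figure D4:**
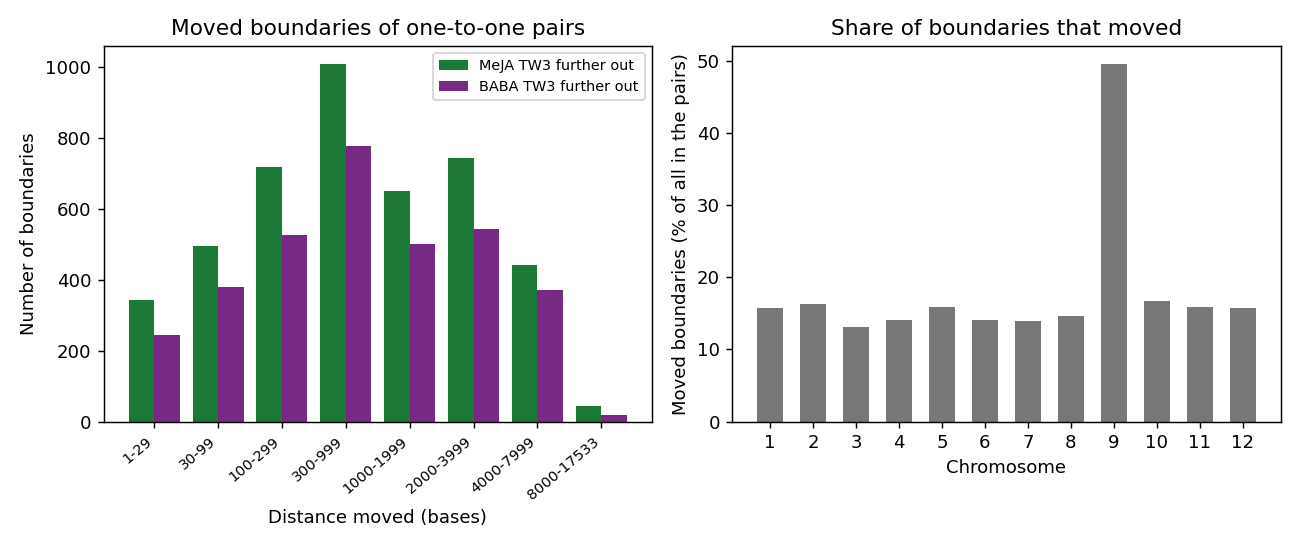
Left, number of moved boundaries (y axis) by distance (x axis, bases) in pairs of regions with a single partner, split by the list that reached further out; MeJA TW3 has the higher bar in every class. Right, share of boundaries that moved (y axis, percent) on each chromosome (x axis), at 49.6% on chromosome 9 and 13.1% to 16.8% elsewhere.

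The largest moved boundary separated a long MeJA TW3 region from a short BABA TW3 one. At 12566057 to 12589928 on chromosome 9 MeJA TW3 had a region of 23.9 kb (score 277), where the BABA TW3 region was 3.4 kb (score 79) and started 17.5 kb later. That stretch was listed over 98.9% by BABA TW2, 62.4% by Ina TW2 and 12.5% by control. The largest move off chromosome 9 was on chromosome 7, where the MeJA TW3 region at 35710450 to 35733572 (score 295) started 14.8 kb before its partner (score 165) and ended at the same base. Ina TW2 listed 96.7% of that stretch, control 48.8% and BABA TW2 none. In the other direction, BABA TW3 ended 12.6 kb further at 53521034 to 53546670 on chromosome 9, counted over both regions (scores 111 in MeJA TW3 and 178 in BABA TW3). On chromosome 8 the BABA TW3 region at 12463910 to 12480393 (score 202) started 10.7 kb before the MeJA TW3 one (score 87). Control and BABA TW2 each listed 98.5% of that stretch and Ina TW2 none. Of the 5 largest moves in each direction, 4 were on chromosome 9.

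Joined and split regions were the other kind of difference. Of the MeJA TW3 regions, 2710 (9.02%) held bases of at least 2 BABA TW3 regions, and 2200 BABA TW3 regions (7.07%) held bases of at least 2 MeJA TW3 regions. In both directions the gap bridged was short, with a median of 161 bases for the 3054 gaps of BABA TW3 that MeJA TW3 spanned and 164 bases for the 2405 spanned the other way. Gaps between neighbouring regions had medians of 2.7 kb and 2.82 kb over the whole lists. The higher count for MeJA TW3 was not particular to this pair. Against control 3170 MeJA TW3 regions held at least 2 regions, with 1790 the other way. These counts were 2852 and 2274 against Ina TW2, and 2751 and 2260 against BABA TW2. For BABA TW3 they were 2915 and 2035 against control, 2598 and 2501 against Ina TW2, and 2529 and 2525 against BABA TW2. The MeJA TW3 region in most pieces was at 13470319 to 13591480 on chromosome 5 (121 kb, score 2048), which BABA TW3 listed as 7 regions that covered 97.0% of it. Control and BABA TW2 also had 7 pieces there and Ina TW2 had 5. The BABA TW3 region in most pieces, at 8510483 to 8642036 on chromosome 12 (132 kb, score 2353), was listed by MeJA TW3 as 5 regions that covered 99.4% of it, and by control, BABA TW2 and Ina TW2 as 5, 3 and 4. In these examples the lists differed in the number of regions and little in the bases listed, while BABA TW3 covered 88.8% of the MeJA TW3 region at 40419572 to 40469369 on chromosome 1, in 5 pieces.

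Edges and whole regions, rather than bridged gaps, made up the bases of a single list. Of the 15.6 Mb under MeJA TW3 only, 8.46 Mb (54.3%) were edges beyond a BABA TW3 region, 5.93 Mb (38.1%) whole MeJA-only regions and 1.18 Mb (7.58%) gaps of BABA TW3. Of the 14.9 Mb under BABA TW3 only, 6.48 Mb (43.4%) were edges, 7.45 Mb (49.8%) whole regions and 1.01 Mb (6.78%) gaps. On chromosome 9 whole regions led on both sides, with 58.3% of the MeJA TW3-only and 60.6% of the BABA TW3-only bases. Elsewhere edges led on the MeJA side with 62.6%, and on the BABA side edges (46.2%) and whole regions (45.6%) were nearly level.

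Over 808 bins of 1 Mb the listed shares of both elicitors followed each other closely. MeJA TW3 was higher in 390 bins and BABA TW3 in 401, and the median absolute difference was 0.722 percentage points. A difference of at least 5 percentage points was found in 15 bins with MeJA TW3 higher (1.86%) and in 1 bin with BABA TW3 higher (0.124%), and all 16 were on chromosome 9. The largest was at 11 to 12 Mb on chromosome 9, with 38.9% listed under MeJA TW3 and 26.8% under BABA TW3, and with 15 MeJA-only and 3 BABA-only regions. Control listed 30.03% of that bin, BABA TW2 36.6% and Ina TW2 27.8%. At 16 to 17 Mb the values were 41.2% and 31.8%, with 40.1% in control, 39.8% in BABA TW2 and 34.9% in Ina TW2. The bin with BABA TW3 higher was at 34 to 35 Mb, with 26.5% under MeJA TW3, 31.7% under BABA TW3, 25.7% in control, 28.9% in BABA TW2 and 23.9% in Ina TW2. Off chromosome 9 the largest difference with MeJA TW3 higher was 4.36 percentage points, at 3 to 4 Mb on chromosome 10 (34.9% and 30.6%), a bin named after its values were seen. The largest with BABA TW3 higher were at 11 to 12 Mb on chromosome 8 (76.6% under MeJA TW3 and 80.8% under BABA TW3), at 44 to 45 Mb on chromosome 3 (73.1% and 77.0%) and at 2 to 3 Mb on chromosome 4 (20.9% and 24.3%). In these 3 bins control, BABA TW2 and Ina TW2 all listed more than MeJA TW3. The ranges by bin were 77.9% to 79.5%, 75.7% to 78.0% and 23.2% to 24.3%. In the chromosome 10 bin control listed 33.6%, BABA TW2 31.9% and Ina TW2 32.9%, all below MeJA TW3 and above BABA TW3.

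**Figure D5:**
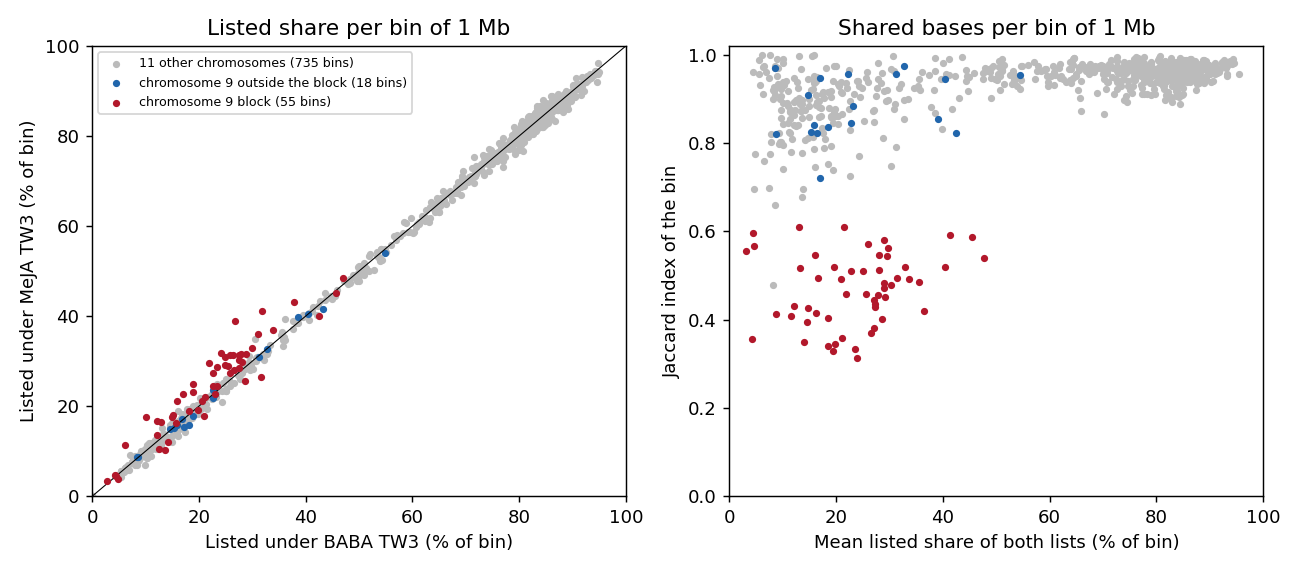
Left, listed share under MeJA TW3 (y axis, percent of the bin) against BABA TW3 (x axis) for 808 bins of 1 Mb, where the line marks equal shares. Right, Jaccard index of each bin (y axis) against the mean listed share of both lists (x axis); the 55 bins of the chromosome 9 block lie at 0.314 to 0.611, below all but 1 of the other bins.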

How the data were processed

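Whole-genome bisulfite libraries of Moneyberg tomato seed had been combined by the authors into 1 region list per group, since the labels of all 12 libraries of a group name the same list. Per the submitters' processing notes, reads were handled with Trim Galore (no version named). The sources used here do not give the aligner, region caller, build, cytosine context or thresholds. The score of each region was used as the authors deposited it. It served for ranking, score classes and minima, for comparing paired regions and, divided by length, for sites per kb. Regions were compared by shared bases (1 base or more), in Python 3.11.15 with numpy 2.4.6, pandas 2.3.3 and scipy 1.17.1, and the interval functions were tested on simulated data. A pair is a MeJA TW3 and a BABA TW3 region that touch only each other. Chromosome ends were taken as the last listed base of any list, and final bins under 0.5 Mb were left out. Named are the 10 regions of each list only with the highest scores, the 5 largest moved boundaries and the 5 bins with the largest differences in each direction, and the 3 regions of each list in most pieces. From these, examples are given. The lists, measures and minimum were chosen with earlier results of these data known, and the minimum of 75 and the chromosome 9 block after seeing the values given here. No gene annotation of the lists' build was used, so regions were not assigned to genes and no sequence is shown. Read depth is unknown.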

Additional observations from a re-analysis of the deposited data

How the results depend on the processing

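Counts of single-list and joined regions, the Jaccard index, chromosome 9's share, moved boundaries and the shares in other lists were recomputed under the alternatives that apply to each. The chromosome 9 block, the bins, the kinds of single-list bases, the nearest distances and the named regions were not. BABA-only minus MeJA-only regions came to 425 as deposited and 158 at a minimum of 71 in both lists, and turned to -274 at 75 and -351 at 85. It was 179 with 71 asked of the counted regions only, -170 with 75, 217 with each list at or above its own median (166 and 162, again unequal) and 1074 with a reciprocal overlap of 50%. BABA-only regions were 743 at 75 and 669 at 85 in both lists, 663 with 75 asked of the counted regions only and 832 above the median. Reciprocal overlap gave 3472 MeJA-only and 4546 BABA-only regions, and without chromosome 9 there were 436 MeJA-only ones. Regions holding 2 or more of the other list were 1180 (MeJA TW3) and 912 (BABA TW3) above the median, 1136 and 955 with gaps under 500 bases joined, and 0 and 0 by construction under reciprocal overlap. The Jaccard index was 0.931 at 85, 0.884 above the median and 0.953 without chromosome 9. Chromosome 9's share of single-list bases was 33.0% at 71, 29.9% at 85 and 37.9% counted by regions. The share of all MeJA TW3 regions with the same interval in BABA TW3 was 53.1%, and became 52.3% at 85, 58.4% with gaps joined, 55.6% without chromosome 9 and 57.2% with boundaries within 100 bases. The median moved distance became 785 bases at 85, 554 without chromosome 9, 1024 where both boundaries had moved and 1482 as a mean. For MeJA TW3-only bases, control's share became 38.7%, 37.7% and 36.3% at minima of 71, 75 and 85, and Ina TW2's 43.2% at 85 and 46.6% without chromosome 9. For BABA TW3-only bases, control's became 46.0%, 39.9%, 37.8% and, without chromosome 9, 55.0%. Ina TW2's became 50.6%, 44.8%, 44.2% and 58.4%, and BABA TW2's 45.4% at 75 and 44.5% at 85. The cause of these shifts was not tested. Minima kept largely the same moved boundaries, so the share of them with MeJA TW3 further out could hardly change. The other values recomputed, that share among them, moved by less than 1.5 times (counts) or stayed within their interval. For the Jaccard index and shares of bases this was a Wilson interval with stretches of bases as units. For the median distance it was an interval by rank. Both served as a rule for sorting the values and do not measure sampling error. No paired analysis was possible because replicates had been combined into 1 list per group, and no replicate could be left out.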
